A study of Mus musculus with 11 samples.

Results

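The ephrin, semaphorin, Slit and netrin genes encode the ligands and receptors that steer growing axons, and the same proteins act between epithelial cells. Members were taken by gene symbol: ephrins (Efna, Efnb), Eph receptors (Epha, Ephb), semaphorins (Sema), plexins and neuropilins (Plxn, Nrp), Slits and their Robo receptors, and netrins (Ntn) with their receptors Unc5 and Dcc. The symbol rule used no measured value, but the set was chosen with earlier results of these data known. The rule found 68 genes among 18193 named genes on the array, and the brightest probe set over all 11 arrays stood for each gene.

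The samples were keratinocytes from the back skin of K5-myrAkt(L84) mice, which carry a membrane-targeted, active form of Akt under control of the keratin 5 gene, a gene of basal keratinocytes. The cells were labelled with an antibody against CD34, a surface protein that marks follicle bulge stem cells, and were separated with magnetic beads into CD34+ cells (5 arrays) and CD34- cells (6 arrays). Every sample of both fractions came from the transgenic line, so the comparison is between the fractions and measures no effect of Akt. The cell type label calls both fractions hair follicle stem cells, whereas the design text uses that name for the CD34+ fraction only, and the labels give no age. Whether each array is a mouse of its own is not stated, and p-values therefore reflect only how these 11 samples vary, which may be technical.

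Ephrins are tethered to the cell surface and bind Eph receptor tyrosine kinases on a neighbouring cell, and signals can run into both cells. Semaphorins are secreted or membrane-bound ligands of the plexins, and most secreted class 3 members need a neuropilin as co-receptor. Slits are secreted ligands of the Robo receptors. Netrins are laminin-related secreted proteins that bind Dcc, neogenin and the Unc5 receptors. In skin, Eph receptors and ephrins are known from the control of keratinocyte proliferation and differentiation, and semaphorins and netrins from the guidance of sensory nerves and vessels.

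Of the 68 genes, 43 passed a filter that removed the dimmest 40% of all genes, and 25 did not. All differences below are log2 values from limma, CD34+ minus CD34-, and a gene was called at a Benjamini-Hochberg adjusted p under 0.05 over all 10916 genes tested. In CD34+ cells 9 of the 43 tested guidance genes were higher and 6 were lower. Together these are 34.9% of those tested, against 24.7% of all tested genes called in either direction, with 12.4% higher and 12.3% lower. The median difference was 0.14 for the 43 guidance genes and 0.00 for all tested genes.

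The members with the largest differences stood further from the background. A call with at least a 2-fold difference was made for 11 of the 43, or 25.6%, against 6.93% of all tested genes. Among them are Robo2 and Dcc, which passed the brightness filter only through their CD34+ means. The arrays of the fractions did not overlap for 11 of the 43, or 25.6%, against 15% of all tested genes. Of these 11, 6 were higher in CD34+ cells and 5 were lower, and the 11 include Plxnb1, which was not called. Because RNA was measured in bulk, fewer cells of a type and less RNA per cell cannot be told apart in any of these values.

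**Figure D1:**
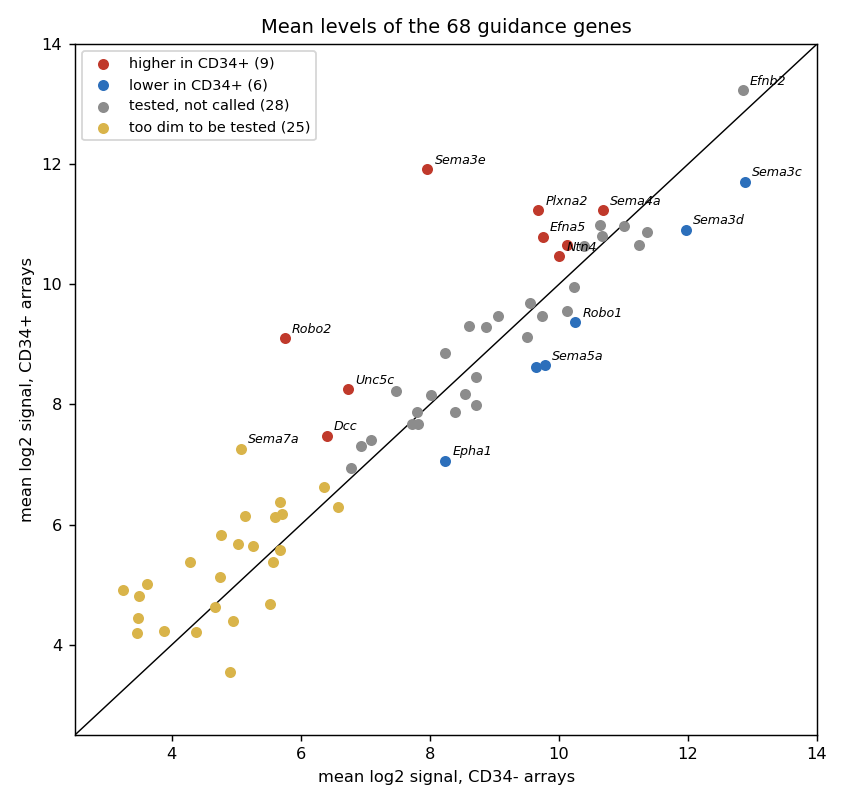
Mean log2 signal of the 68 guidance genes on the 5 CD34+ arrays (vertical axis) against the 6 CD34- arrays (horizontal axis), 1 point per gene, coloured by call. Sema3e and Robo2 lie farthest above the diagonal of equal level, and the 25 genes that were too dim to be tested lie at the lower left.

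Semaphorins held the largest single difference. Sema3e, a secreted class 3 semaphorin that binds plexin D1 directly, had log2 signals of 13.18, 11.07, 10.57, 12.49 and 12.31 on CD34+ arrays 1 to 5, against a lowest, median and highest of 7.80, 7.95 and 8.13 on CD34- arrays. Every CD34+ array was higher than any CD34- array. The difference was 3.96 (SE 0.36, limma adjusted p = 1.21e-05), a 15.6-fold higher signal in CD34+ cells. Further probe sets of the gene, where bright enough, gave 4.32 (SE 0.39) and 5.06 (SE 0.77), both called, the last with 4 of 6 CD34- values under the 40th percentile of their array, so that its size depends on dim values. The receptor gene Plxnd1 was too dim to be tested, with signals of 5.97 to 7.53 on CD34+ arrays and 5.76 to 6.82 on CD34- arrays. Its mean of 6.49 lay just under the lowest tested mean of 6.59. In the fit of every probe set it passed the filter and was not called (0.27, SE 0.33, adjusted p = 0.584).

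Sema3c and Sema3d, of the same class, were called lower in CD34+ cells. Neither call held with the actin ratio, a measure of RNA integrity, as a covariate (Sema3c -0.26, adjusted p = 0.585, and Sema3d 0.18, adjusted p = 0.871). Sema3c, a secreted ligand of neuropilins, had signals of 10.80, 11.41, 11.83, 12.19 and 12.30 on CD34+ arrays, against 12.62, 12.81 and 13.17 (lowest, median, highest) on CD34- arrays, and the fractions did not overlap. It was lower by a difference of -1.18 (SE 0.23, adjusted p = 0.00288), while its dimmer probe set gave -0.55 and was not called (adjusted p = 0.14). Sema3d, another secreted class 3 member, had signals of 9.14, 11.01, 11.43, 11.41 and 11.58 on CD34+ arrays, against 11.77, 11.99 and 12.14 on CD34- arrays. Its difference of -1.06 (SE 0.34, adjusted p = 0.037) was -0.61 without CD34+ array 1, the lowest, and then still called (adjusted p = 0.00478). It lost its call in 7 of the other fits that dropped 1 array, where the adjusted p reached 0.0687, and a dimmer probe set was not called (-1.64, adjusted p = 0.117).

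These genes are neighbours. Sema3d, Sema3a, Sema3e and Sema3c follow each other in that order on chromosome 5 of the GRCm38.p6 annotation. No protein-coding gene lies between Sema3d and Sema3a, 3 lie between Sema3a and Sema3e, and 15 between Sema3e and Sema3c. Sema3a, the founding axon repellent of the class, did not pass the test, with a difference of 0.17 (SE 0.24, adjusted p = 0.621). Thus a gene that was higher in CD34+ cells lies among genes of its own class that were lower or not called, and after adjustment for the actin ratio Sema3e alone of the 3 called neighbours kept its call.

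**Figure D2:**
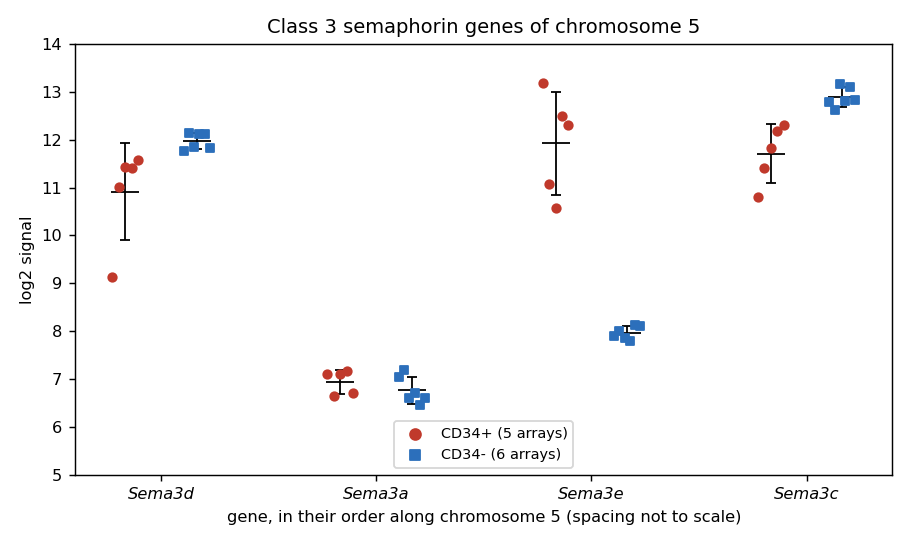
Log2 signal of the 4 class 3 semaphorin genes of chromosome 5, in their order along the chromosome (spacing not to scale), on 5 CD34+ arrays (circles) and 6 CD34- arrays (squares), with mean and SD. Sema3e was higher in CD34+ cells with a difference of 3.96, Sema3d and Sema3c were lower with -1.06 and -1.18 (0.18 and -0.26 without a call once the actin ratio is a covariate), and Sema3a overlapped.

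The stretches upstream of the 3 called neighbours are shown because their genes were called in opposite directions with the deposited values. Each line gives the 250 bases before the RefSeq start of the gene on the plus strand of GRCm38.p6, 5′ to 3′, for Sema3e at chr5:14025026-14025275, Sema3d at chr5:12382916-12383165 and Sema3c at chr5:17574566-17574815. Capitals mark matches, on either strand, to the letters CTTTGA (core of TCF/LEF sites), TGTTTAC (forkhead), GGAAAA (NFAT) or GGGCGG (GC box), and matches were allowed to overlap.

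Sema3e: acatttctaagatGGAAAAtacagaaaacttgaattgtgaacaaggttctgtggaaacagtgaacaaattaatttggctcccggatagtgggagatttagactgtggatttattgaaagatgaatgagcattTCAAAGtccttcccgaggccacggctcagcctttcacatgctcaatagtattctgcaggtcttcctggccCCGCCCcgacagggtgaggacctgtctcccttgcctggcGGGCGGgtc
Sema3d: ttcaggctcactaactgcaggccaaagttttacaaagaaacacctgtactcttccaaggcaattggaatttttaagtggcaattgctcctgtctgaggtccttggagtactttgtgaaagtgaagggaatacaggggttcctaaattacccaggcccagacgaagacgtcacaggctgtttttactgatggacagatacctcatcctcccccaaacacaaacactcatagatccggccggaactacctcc
Sema3c: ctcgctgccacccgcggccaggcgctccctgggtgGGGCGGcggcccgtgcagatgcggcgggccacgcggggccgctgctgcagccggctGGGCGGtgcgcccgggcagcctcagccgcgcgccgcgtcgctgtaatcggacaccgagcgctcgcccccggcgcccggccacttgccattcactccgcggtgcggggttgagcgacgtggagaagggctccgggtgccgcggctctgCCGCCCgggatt

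The window of Sema3e held 1 TCF/LEF core, 1 NFAT core and 2 GC boxes, that of Sema3c held 3 GC boxes, and that of Sema3d held none of the 4 motifs. G and C made up 48% of the Sema3e window, 46.8% of the Sema3d window and 78.4% of the Sema3c window. Of all 32851 such windows in the table, 13.8% held the TCF/LEF core, 3.17% the forkhead motif, 20.4% the NFAT core and 32.7% the GC box. Windows were found for 14 of the 15 called genes, 8 higher and 6 lower, with 20 windows in all. A gene with several windows has more chances of a match, so gene counts do not compare directly with shares of single windows. At least 1 window held the TCF/LEF core for 1 of the 8 and 1 of the 6, the NFAT core for 2 and 0, the GC box for 6 and 4, and the forkhead motif for 0 and 0. A match describes these letters only and no binding was measured.

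Among the membrane-bound semaphorins, Sema5a and Sema4a were called. Sema5a, which carries thrombospondin repeats, had signals of 7.80, 8.88, 9.32, 9.31 and 7.92 on CD34+ arrays, against 9.65, 9.80 and 9.92 (lowest, median, highest) on CD34- arrays. All 5 CD34+ arrays were below the CD34- arrays, with a difference of -1.13 (SE 0.26, adjusted p = 0.00818), and a dimmer probe set was called too (-1.46, SE 0.32). Sema4a, a class 4 semaphorin best known from immune cells and the retina, was higher by 0.55 (SE 0.13, adjusted p = 0.00782) without overlap, while its other probe set gave -0.02 (adjusted p = 0.942). With the mean of probe sets, neither Sema5a (-0.89, adjusted p = 0.104) nor Sema4a (0.26, adjusted p = 0.126) was called. Of the 20 semaphorin genes, 14 were tested, and 35.7% of these were called, against 24.7% of all tested genes. Of the 14, 2 were higher, 3 lower and 9 not called, with a median difference of -0.06. The 9 ranged from -0.71 (Sema4c, adjusted p = 0.195) to 0.69 (Sema6c, adjusted p = 0.0695). The other 7 were Sema3a, Sema3f, Sema4b, Sema4d, Sema4g, Sema6a and Sema6d.

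Sema7a, a glycolipid-anchored semaphorin that binds integrins and plexin C1, missed the brightness filter at a mean log2 signal of 6.06 against a lowest tested mean of 6.59. It had signals of 7.18, 7.89, 7.74, 6.73 and 6.75 on CD34+ arrays, against 3.74, 5.03 and 6.96 (lowest, median, highest) on CD34- arrays. In the fit without that filter it was higher by 2.19 (adjusted p = 0.0185). The fractions overlapped, and 4 of the 6 CD34- values lay under the 40th percentile of their array. With values under that percentile raised to it, the difference was 1.30. That percentile was 6.037 to 6.658 on CD34+ arrays and 5.631 to 5.865 on CD34- arrays. Raising values to it therefore gives a gene that is dim on every array, such as Epha10, a difference of 0.55.

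Among the semaphorin receptors, Plxna2 was the called gene. Plexin A2 pairs with neuropilins as a receptor of class 3 semaphorins and binds class 6 semaphorins by itself. It had signals of 11.68, 10.99, 10.65, 11.63 and 11.17 on CD34+ arrays, against 9.30, 9.70 and 9.96 (lowest, median, highest) on CD34- arrays. Every CD34+ array lay above the CD34- arrays, and the difference was 1.55 (SE 0.19, adjusted p = 1.19e-04), or 2.92-fold. Its 3 other probe sets were all called higher, by 1.5, 1.43 and 1.16.

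The other 8 tested plexin and neuropilin genes were not called, and 2 of the 11 genes, Plxnb3 and Plxnd1, were too dim to be tested. The called share of this family was 11.1%, against 24.7% of all tested genes. Plxnb2, a receptor of class 4 semaphorins, had signals of 9.99, 10.98, 11.65, 10.87 and 10.87 on CD34+ arrays, against 11.27, 11.34 and 11.48 on CD34- arrays, and the fractions overlapped because of CD34+ array 3 (difference -0.49, SE 0.21, adjusted p = 0.104). Plxna1 was nearest to the threshold (-0.37, SE 0.13, adjusted p = 0.0548). The neuropilin genes Nrp1 (0.63, SE 0.24, adjusted p = 0.0671) and Nrp2 (-0.14, SE 0.22, adjusted p = 0.653) encode the co-receptors of the secreted class. Plxna3, Plxna4, Plxnb1 and Plxnc1 gave differences of 0.41, 0.37, -0.27 and -0.37.

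Of the Slit receptor genes, Robo2 was called higher and Robo1 lower, and the call of Robo1 did not hold in several settings. Robo2 had signals of 10.10, 8.70, 8.48, 9.10 and 9.12 on CD34+ arrays, against 4.89, 5.77 and 6.42 (lowest, median, highest) on CD34- arrays. The gap between the lowest CD34+ array and the highest CD34- array was wide, and the difference was 3.35 (SE 0.34, adjusted p = 3.19e-05). Since 3 of the 6 CD34- values were under the 40th percentile of their array, its size depends on dim values. With those values raised to that percentile, the difference was 3.10, or 8.55-fold. That percentile was higher on every CD34+ array (6.037 or more) than on the CD34- arrays (5.865 or less), so the dim end was not level between the fractions. Robo2 was measured by a single probe set. It passed the brightness filter through its CD34+ mean of 9.1, with a CD34- mean of 5.75 below the lowest tested mean of 6.59. Without that filter it was called too (adjusted p = 2.73e-05).

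Robo1, the closest relative of Robo2 among Slit receptors, had signals of 8.36, 9.19, 9.65, 9.65 and 10.03 on CD34+ arrays, against 9.88, 10.27 and 10.63 (lowest, median, highest) on CD34- arrays. Only CD34+ array 5 reached into the CD34- range. The difference was -0.88 (SE 0.25, adjusted p = 0.0211), and a dimmer probe set gave -0.30 without a call (adjusted p = 0.677). The difference was -0.63 without CD34+ array 1, and -0.48 without a call when arrays 1 and 2 were both dropped (adjusted p = 0.0722). It was -0.25 with the mean of probe sets (adjusted p = 0.602) and -0.07 after adjustment for the actin ratio (adjusted p = 0.953). Robo3 and Robo4 were too dim to be tested.

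Of the ligands, Slit3 was bright enough to be tested and Slit1 and Slit2 were not. Slit3 had signals of 7.93, 8.25, 8.29, 6.99 and 6.88 on CD34+ arrays, against 7.17, 7.72 and 8.17 on CD34- arrays, and the ranges overlapped on both sides (difference -0.06, SE 0.29, adjusted p = 0.905). Slit2 was under the 40th percentile on all 5 CD34+ arrays and on 5 of 6 CD34- arrays.

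Netrin receptor genes were higher in CD34+ cells for 2 of the 3 tested, where 12.4% of all tested genes were called higher. With the mean of probe sets 1 netrin receptor gene was tested, and it was not called. Unc5c, a repulsive netrin receptor with a death domain, had signals of 8.37, 8.58, 7.91, 8.07 and 8.34 on CD34+ arrays, against 6.21, 6.80 and 7.06 (lowest, median, highest) on CD34- arrays. There was no overlap, and the difference was 1.52 (SE 0.21, adjusted p = 3.93e-04), or 2.87-fold. Dcc, the attractive netrin receptor, had signals of 7.86, 8.61, 6.49, 7.48 and 6.95 on CD34+ arrays, against 5.85, 6.33 and 6.85 on CD34- arrays, with CD34+ array 3 inside the CD34- range. Its difference of 1.08 (SE 0.35, adjusted p = 0.0395) was no longer called in 7 of 11 fits that each dropped 1 array (adjusted p up to 0.0847). After quantile normalization it was 0.79 (adjusted p = 0.12). Dcc passed the brightness filter through its CD34+ mean of 7.48, with a CD34- mean of 6.4 below the lowest tested mean of 6.59, and without that filter it was not called (adjusted p = 0.0591).

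Unc5b, the family member best known from blood vessels, had signals of 8.65, 9.31, 10.04, 10.06 and 9.74 on CD34+ arrays, against 9.78, 10.15 and 10.50 on CD34- arrays, and was not called (-0.56, SE 0.23, adjusted p = 0.0921). Unc5a and Unc5d were too dim to be tested. Ntn4, a netrin of basement membranes that binds laminins, had signals of 10.50, 10.58, 10.54, 10.43 and 10.32 on CD34+ arrays, against 9.66, 9.98 and 10.39 on CD34- arrays. It was higher by 0.48 (SE 0.15, adjusted p = 0.0323), with the lowest CD34+ value inside the CD34- range and was no longer called in 6 of 11 such fits (adjusted p up to 0.0714). Ntn1, the classical ligand of Dcc and the Unc5 receptors, was too dim to be tested, at 5.35 to 7.12 on CD34+ arrays and 4.58 to 6.46 on CD34- arrays. Ntn3 and Ntn5 were also too dim.

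**Figure D3:**
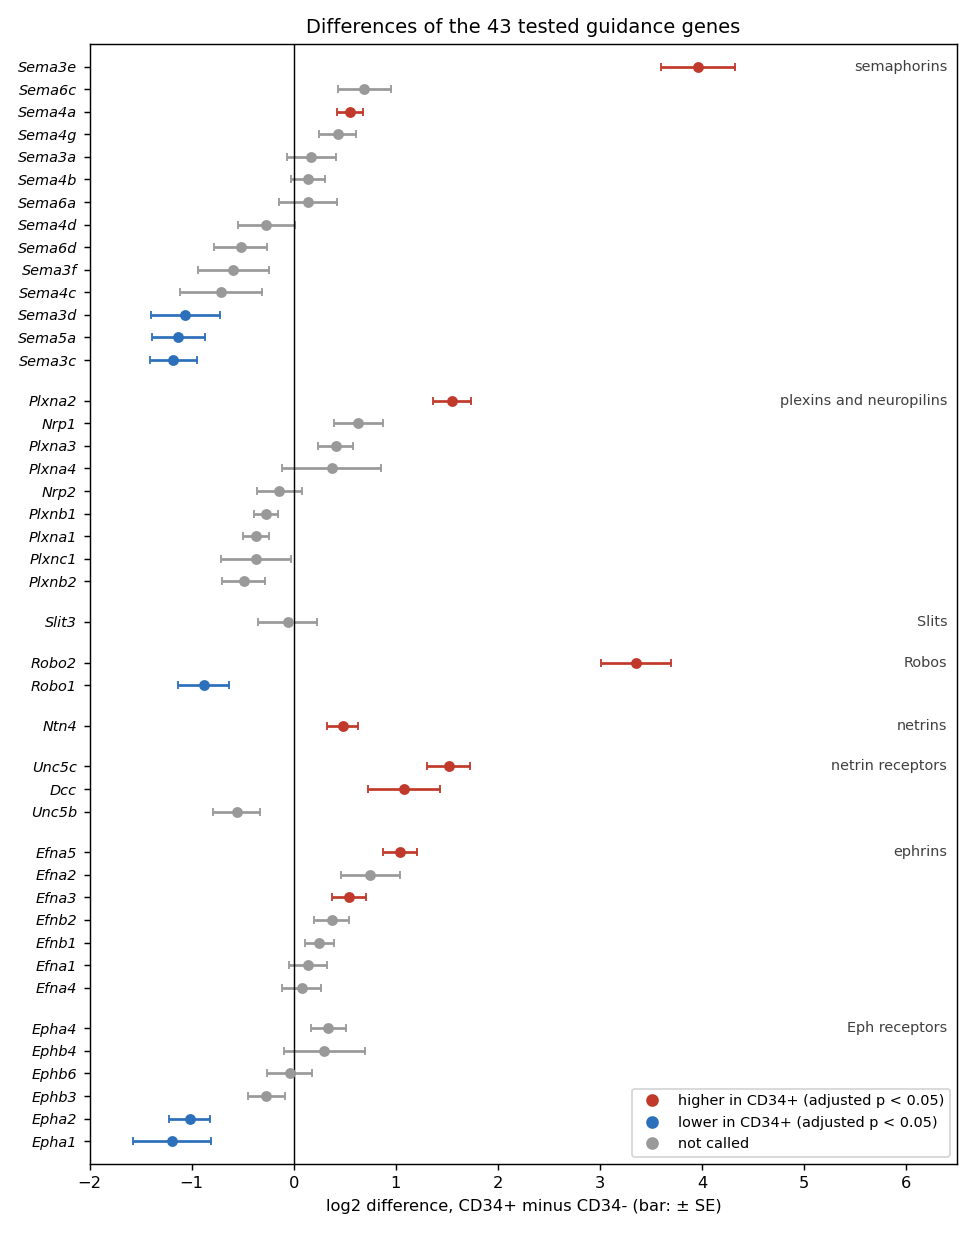
Log2 difference (CD34+ minus CD34-) with its standard error for the 43 tested guidance genes, grouped by family. Of the 15 called genes, 9 lie to the right of 0 (higher in CD34+ cells) and 6 to the left, and Sema3e (3.96) and Robo2 (3.35) lie apart from the rest.

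Of the 7 ephrin genes tested, 2 were called higher and none lower, a share near the 24.7% of all genes called. All 7 differences were positive (median 0.37), where 49.6% of all tested genes were positive. That count fell to 6 of 7 after quantile normalization, 4 of 7 with equal array medians and, with the mean of probe sets, 5 of the 8 then tested, in which Efna1 (-0.32) and Efnb1 (-0.06) turned negative without a call and Efna5 lost its call (0.93, adjusted p = 0.0967). Efna5, a glycolipid-anchored ephrin, had signals of 11.37, 10.33, 10.49, 10.97 and 10.79 on CD34+ arrays, against 9.62, 9.74 and 9.90 (lowest, median, highest) on CD34- arrays. The fractions did not overlap, and the difference was 1.04 (SE 0.17, adjusted p = 0.00111). Efna3, of the same anchored class, was higher by 0.54 (SE 0.17, adjusted p = 0.0364), but was not called in 7 of 11 fits with 1 array dropped (adjusted p up to 0.08), and its other probe set gave 0.32 without a call (adjusted p = 0.201).

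Efnb2, a transmembrane ephrin that also marks arteries, had signals of 13.70, 12.84, 13.43, 13.03 and 13.13 on CD34+ arrays, against 12.46, 12.84 and 13.29 on CD34- arrays. The ranges overlapped and it was not called (0.37, SE 0.17, adjusted p = 0.122). Its next brightest probe set, at a mean log2 signal of 11.53, gave -0.23 without a call (adjusted p = 0.217). Efna1, Efna2, Efna4 and Efnb1 were not called either, with differences of 0.14, 0.75, 0.08 and 0.25. Efnb3 was too dim to be tested.

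Of the 13 Eph receptor genes 6 were tested, and none was called higher and 2 were called lower. The called share was 33.3%, against 24.7% of all tested genes. Epha2, the Eph receptor most studied in epidermal keratinocytes, had signals of 8.22, 9.11, 8.85, 8.14 and 8.77 on CD34+ arrays, against 9.13, 9.71 and 9.89 (lowest, median, highest) on CD34- arrays. All CD34+ values lay below the CD34- values, the nearest by little, and the difference was -1.02 (SE 0.20, adjusted p = 0.00313). Epha1 had signals of 7.51, 7.91, 6.89, 6.38 and 6.58 on CD34+ arrays, against 7.53, 8.04 and 9.67 on CD34- arrays, and CD34+ array 2 lay inside the CD34- range. It was lower by a difference of -1.19 (SE 0.38, adjusted p = 0.0365), and was not called in 6 of 11 fits with 1 array dropped (adjusted p up to 0.0782).

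Ephb6, whose kinase domain is inactive, had signals of 10.47, 10.87, 11.91, 10.86 and 10.76 on CD34+ arrays, against 10.71, 11.00 and 11.31 on CD34- arrays, with overlapping ranges (-0.04, SE 0.22, adjusted p = 0.907). Epha4, which can bind ephrins of both classes, gave 0.34 (SE 0.17, adjusted p = 0.143). Ephb3 (-0.27) and Ephb4 (0.30) were not called. The other 7, Epha3, Epha5, Epha6, Epha7, Epha8, Epha10 and Ephb1, were too dim. Epha10 and Sema7a were the untested genes with a call in the fit without the filter, but Epha10 (1.66, adjusted p = 0.0487) was under the 40th percentile on all 11 arrays.

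**Figure D4:**
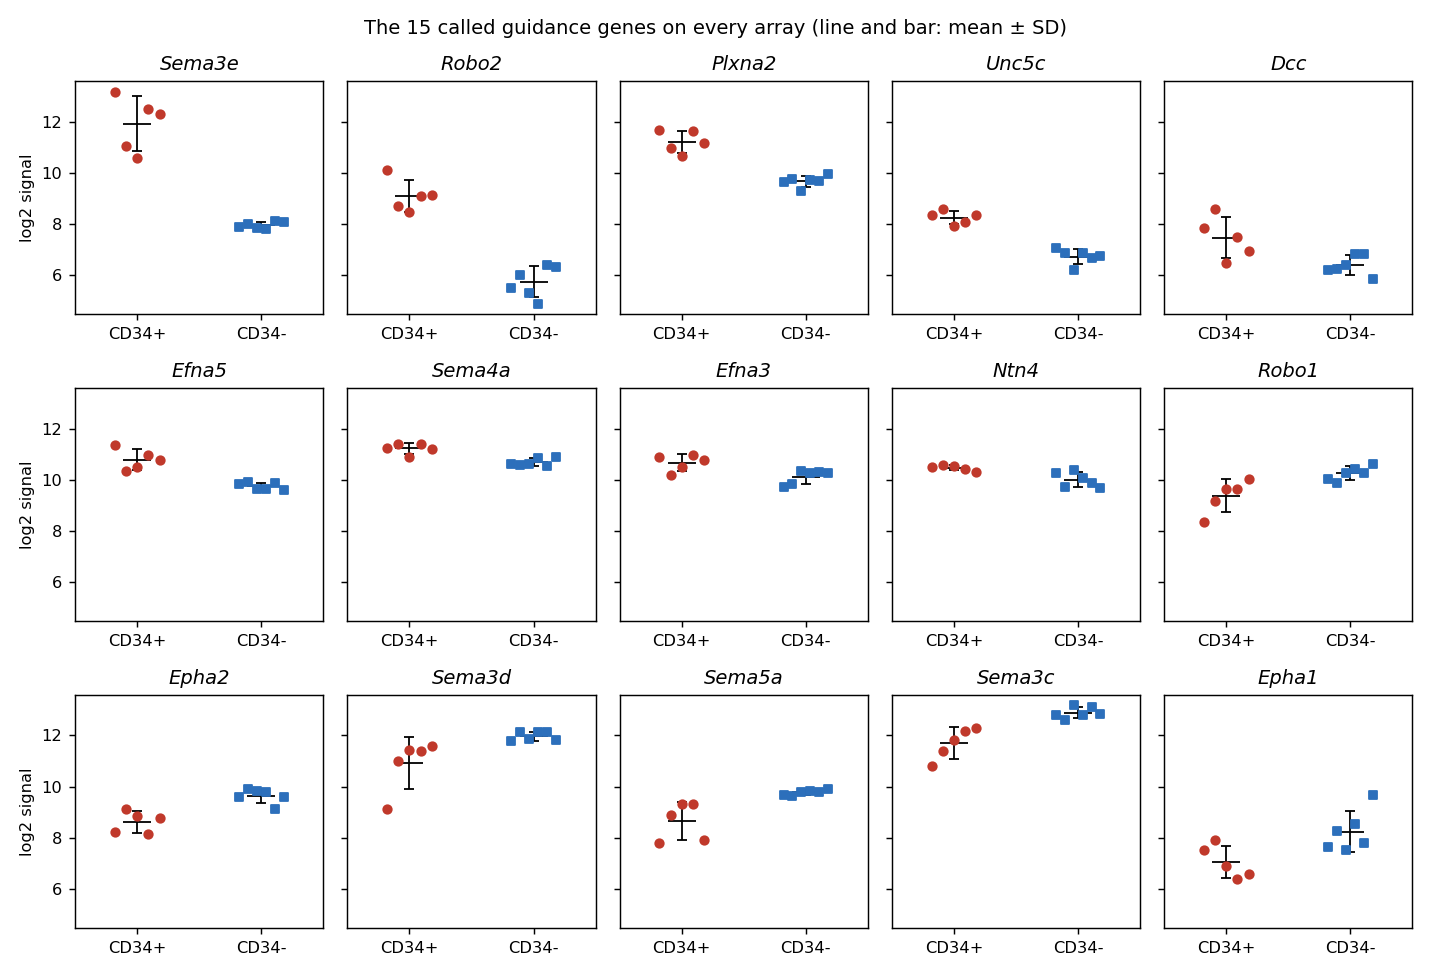
Log2 signal of the 15 called guidance genes on each of the 5 CD34+ arrays (circles, left) and 6 CD34- arrays (squares, right), with mean and SD, ordered from the highest to the lowest difference. Sema3e, Robo2, Plxna2, Unc5c, Efna5 and Sema4a lie higher in CD34+ cells without overlap, and Epha2, Sema3d, Sema5a and Sema3c lie lower without overlap.

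Agreement between probe sets differed between the called genes. For 8 of the 15 another probe set had passed the brightness filter. All such probe sets were called in the same direction for 3 genes, Sema3e, Plxna2 and Sema5a. The other 5, Efna3, Robo1, Sema3c, Sema3d and Sema4a, had 1 such probe set each, and it was not called. None was called in the opposite direction. Of all 79 guidance probe sets that passed, 16 were higher, 9 lower and 54 not called, which compares with 20.7% called among all probe sets. These are counts of probe sets and not of genes. The 16 hold, besides the brightest, 3 further probe sets of Plxna2 and 2 of Sema3e.

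Partners of these pathways (adaptors, signalling proteins, co-receptors and further ligands) were listed as 64 genes, of which 52 were tested. In CD34+ cells 11 were higher and 9 lower, or 38.5% called against 24.7% of all tested genes, with a median difference of 0.06. The 5 higher genes with the smallest p were Ntng1 (1.70, SE 0.23), a glycolipid-anchored relative of netrins, Nck2 (1.14, SE 0.18), an adaptor bound by ephrin-B tails, the Src family kinase gene Fyn (1.35, SE 0.23), Ngef (0.94, SE 0.17), which encodes ephexin, a protein downstream of EphA receptors, and Neo1 (0.62, SE 0.12), which encodes neogenin. Their adjusted p ran up to 0.0036 (Neo1), and none overlapped between the fractions. The 5 lower genes with the smallest p were Gpc1 (-0.64, SE 0.13), a heparan sulfate proteoglycan that binds Slits, the neogenin ligand gene Rgmb (-1.29, SE 0.27), Met (-0.80, SE 0.21), a receptor kinase that associates with plexin B1, Gipc1 (-0.59, SE 0.15), which binds the neuropilin tail, and the GTPase gene Rac1 (-0.82, SE 0.22). Their adjusted p ran up to 0.0157 (Rac1), and Rac1 alone of the 5 overlapped between the fractions. With the actin ratio as a covariate, Ntng1 alone of the named partner genes kept its call. With the mean of probe sets, Nck2, Neo1, Rgmb, Met and Rac1 lost their calls.

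Other properties of the samples were set beside these results. Keratinocyte markers were bright in both fractions, with a summed log2 signal of 16.91 to 17.33 on CD34+ arrays and 16.92 to 17.32 on CD34- arrays, and 1 of 7 was higher and 2 were lower. Of 7 suprabasal markers 3 were higher and 1 lower. Of 14 genes listed as bulge stem cell markers 12 were higher and 1 was lower (Itga6), where 12.4% of all tested genes were higher. The 12 include Cd34 and Tcf4 (0.71). In the gene symbols used, Tcf4 and Tcf3 (0.09, not called) are E proteins and not the bulge factors formerly given these names. Cd34, on which cells were sorted, averaged 11.83 on CD34+ arrays and lay under the 40th percentile on all 6 CD34- arrays. Of 9 fibroblast and dermal markers 5 were tested and 4 were higher, and their summed log2 signal was 12.84 to 14.02 on CD34+ arrays and 11.76 to 12.98 on CD34- arrays. The 4 were Col1a2 (3.49), Fbln1 (1.86), Pdgfra (1.59) and Dcn (1.53). Vim, the brightest of the 5 and the largest part of the sum, was not called (0.51). Of 6 smooth muscle markers both tested ones were higher (summed signal 9.05 to 12.14 on CD34+ arrays and 8.47 to 8.98 on CD34- arrays). All 5 tested T cell markers were lower (9.11 to 11.36 on CD34+ arrays and 11.70 to 12.66 on CD34- arrays). Of 8 tested myeloid and Langerhans markers 4 were higher (12.48 to 13.89 on CD34+ arrays and 11.94 to 12.71 on CD34- arrays). Of 9 endothelial markers 1, Egfl7, was tested and not called (8.54 to 9.65 on CD34+ arrays and 8.30 to 8.78 on CD34- arrays). Cdh5, Tek and Erg lay below the 40th percentile of every array, whereas Kdr lay above it on every array. Pecam1 was higher in the fit without the filter (2.1, adjusted p = 0.0349). It lay under that percentile on 4 of 5 CD34+ arrays and on all 6 CD34- arrays. Of 3 tested Schwann cell and nerve markers 2 were lower (10.84 to 11.08 on CD34+ arrays and 11.24 to 11.56 on CD34- arrays), and of 7 melanocyte markers 1 was higher and 1 lower (12.94 to 13.77 on CD34+ arrays and 12.40 to 14.70 on CD34- arrays). The part of these cell types in the guidance gene differences was not tested.

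The actin 3-prime to 5-prime ratio, which rises as RNA or its labelled copies become shorter, was 2.905 to 5.245 on CD34+ arrays and 2.186 to 2.76 on CD34- arrays in log2 units. When the fit included it as a covariate, 126 of all tested genes were called, and 4 of the 15 guidance genes kept their call. These were Sema3e (3.87, SE 0.59, adjusted p = 0.00719), Robo2 (2.83, SE 0.52, adjusted p = 0.02), Plxna2 (1.45, SE 0.30, adjusted p = 0.0354) and Epha1 (-2.25, SE 0.50, adjusted p = 0.0457). Unc5c (1.31), Efna5 (0.94), Sema4a (0.55), Efna3 (0.70), Ntn4 (0.46) and Epha2 (-1.06) stayed near their differences without a call, Dcc (0.56) and Sema5a (-0.78) moved toward 0, and Sema3c (-0.26), Robo1 (-0.07) and Sema3d (0.18) came to lie near 0. The ratio did not overlap between the fractions, so its part in these differences cannot be fully told apart from the fraction.

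**Figure D5:**
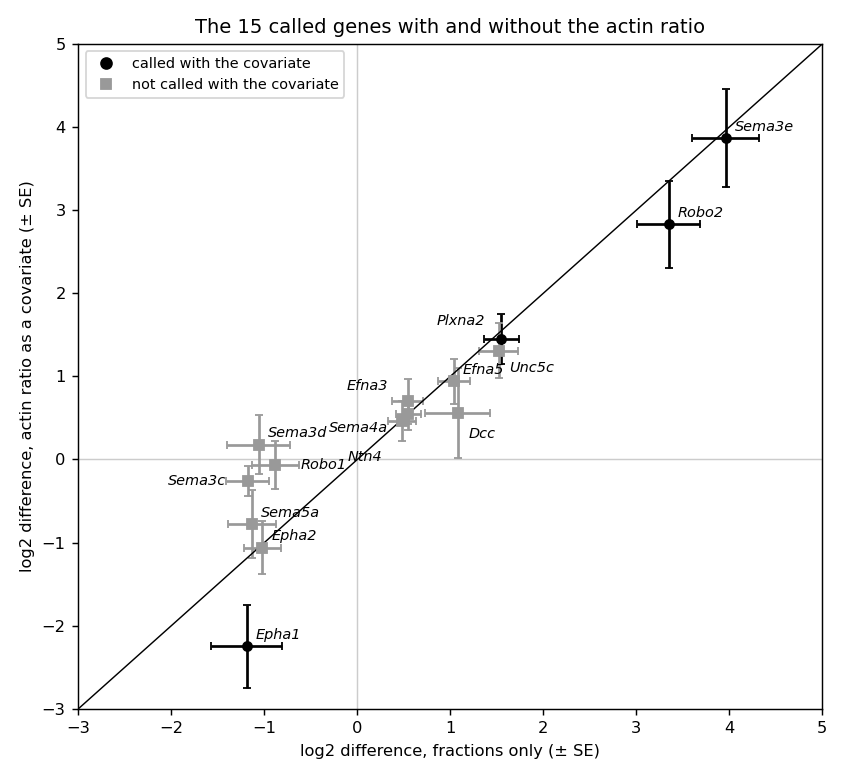
Log2 difference (CD34+ minus CD34-) of the 15 called guidance genes in the fit with the fractions alone (horizontal axis) and after adjustment for the actin ratio (vertical axis), with standard errors. Sema3e, Robo2 and Plxna2 stay near the diagonal and called, Epha1 is called at -2.25, and Sema3d, Robo1 and Sema3c lie near 0 on the vertical axis.

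The choice of scaling set the balance of directions. With arrays shifted to equal medians, CD34+ cells had 531 higher and 4011 lower genes among all tested, against 1350 higher and 1347 lower with the deposited values, and the median difference of all genes was -0.36. The guidance genes then split into 5 higher and 14 lower, against 9 and 6. This scaling moves the difference of every gene by the same amount. With quantile normalization 8 guidance genes were higher and 5 lower. Sema3e, Robo2 and Plxna2 were called in every alternative in which they were fitted.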

How the data were processed

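Total RNA from 5 CD34+ and 6 CD34- samples was measured on single-channel Affymetrix arrays. The authors deposited log2 values, 1 per probe set and array, produced by MAS5 (named in the submitters' processing notes, where its version and settings are not given). That the scale is log2 follows from the data, since the linear mean after trimming 2% from each end was 500.002 to 500.004 on all arrays. They were used without further normalization, and no detection calls were used. Of 45101 probe sets, 34945 had 1 gene symbol in the platform annotation (932 several, 9160 none, 64 controls), and these stand for 18193 genes.

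The brightest probe set of each gene was kept, the dimmest 40% of genes were left out, and the fractions were compared for 10916 genes with limma 3.58.1 in R 4.3.3 (empirical Bayes with intensity trend, two-sided, Benjamini-Hochberg adjustment over all genes tested, called under 0.05). Other probe sets were fitted in the same way among all that passed the filter. All guidance genes could be named, with each CD34+ value and the range and median of the CD34- values for the 12 largest called differences and the brightest gene of each family, and of the partner list the 5 smallest p in each direction. Sema7a was described in the same way after its values were seen. Alternatives covered normalization, filters, the summary of probe sets, moderation, thresholds, the actin ratio, left-out arrays and the replicate number. Members, lists and alternatives were chosen with earlier results of these data known. The number of arrays limits the precision, and the median standard error was 0.187. The fit was tested on simulated data. Promoter sequences are from RefSeq (GRCm38.p6).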

Additional observations from a re-analysis of the deposited data

Results flagged for a closer look

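In the tested guidance genes, 86 groups of arrays were examined for an array far from the others, and 3 held one, where chance gives about 1 in 20. Sema3d on CD34+ array 1 had a log2 signal of 9.14, with the other CD34+ arrays at 11.01 to 11.58. Ephb6 on CD34+ array 3 had 11.91, with the others at 10.47 to 10.87. Ephb4, the main receptor of ephrin-B2, had 5.38 on CD34- array 1, with the other CD34- arrays at 7.07 to 7.87. Ephb4 and Ephb6 were not called.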

How the results depend on the processing

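Against 2697 genes, 15 guidance genes (9 higher, 6 lower in CD34+ cells) and 20 partner genes called with the deposited values, the actin ratio as a covariate left 126 genes, 4 guidance genes (3 higher, 1 lower, all 4 among the 15) and 1 partner gene. The mean of probe sets gave 1756 genes, 7 guidance genes (4 higher, 3 lower, 6 of them among the 15) and 12 partner genes. Equal medians gave 4542 genes, with 5 guidance genes higher and 14 lower. An adjusted p under 0.01 left 1004 genes, 9 guidance genes (3 of them lower) and 8 partner genes, a 2-fold minimum left 756 genes and 7 partner genes, and the brightest 40% of genes held 13 called partner genes. Directions turned for Sema3d with the actin ratio (0.18) and for Rac1 with the mean of probe sets (0.09). In the fits that each left out 1 array, 10 to 17 guidance genes were called, and 10 of the 15 were called in every such fit. With the replicate number as a block (a replicate block of arrays 1 to 5 of each fraction, without CD34- array 6) 2025 genes and 14 guidance genes were called, and Epha1 (adjusted p = 0.0686), Dcc (0.0949) and Ntn4 (0.088) lost their call, while Efna2 (0.0497) and Sema6c (0.0452) gained one. Deviations of same-numbered arrays correlated at 0.02 to 0.19, and CD34+ array 1 alone of the CD34+ arrays correlated best with its own number, so the arrays were not treated as paired. For the remaining changes the cause was not tested.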

Other observations

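Beside Sema7a, described above, probe sets of Sema3f and Nrp1 passed the test although these genes were not called. Sema3f, a secreted ligand of neuropilin 2, was lower in CD34+ cells on its 2 dimmer probe sets (-1.98, SE 0.58, adjusted p = 0.0284, and -0.92, SE 0.28, adjusted p = 0.0342), while the brightest gave -0.59 (adjusted p = 0.234 in the same fit). For the first of these, 1 CD34+ value lay under the 40th percentile of its array (lowest 4.15, median 7.78). The size of -1.98 therefore depends on a dim value. Nrp1 was higher on 1 of 3 dimmer probe sets (0.93, SE 0.29, adjusted p = 0.0344), while the brightest gave 0.63 (adjusted p = 0.0745).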
